A study of Mus musculus with 6 samples.

Results

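The chromatin of 10 claudin and tight junction genes was described in intestinal crypts of WT and Arid3a cKO mice profiled by ATAC-seq, an assay in which Tn5 transposase inserts adapters into accessible DNA. The genes were Cldn2, Cldn3, Cldn4, Cldn7, Cldn15, Cldn23, Ocln and Tjp1, which the gut epithelium expresses, together with Cldn5, a claudin of endothelium, and Cldn18, a claudin of stomach and lung. They were taken by name out of 21938 protein-coding genes. A peak was assigned to a gene when its summit lay in the gene body or within 10 kb either side, which gave 56 of 71286 consensus peaks (peaks of the 6 lists merged where they share at least 1 base).

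There were 3 WT and 3 cKO samples. Both groups received tamoxifen on 3 days and were collected 1 month after the first dose. The cKO animals carried Villin Cre-ERT2 and Arid3a fl/fl, so that the Villin promoter drove the deletion of Arid3a in intestinal epithelial cells, and stromal cells in a crypt preparation would keep the gene. The age and sex of the animals, and whether WT animals carried the Cre, were not given in the labels. The labels also do not state that each sample is a separate animal, so p-values measure the spread between these samples.

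Tight junctions seal the space between neighbouring epithelial cells near their apical edge. Claudins are 4-pass membrane proteins whose extracellular loops set what passes: some, such as Cldn2 and Cldn15, form pores for small cations, and others, such as Cldn3 and Cldn4, tighten the barrier. Occludin (Ocln) is a further membrane component, and ZO-1, the product of Tjp1, is the cytoplasmic scaffold that ties the strands to actin. Each tissue expresses its own set of claudins, so loci of claudins used elsewhere serve as a reference for a crypt preparation.

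The 6 lists held 40492 to 58297 peaks. Coverage, read as the background value most frequent in a list, was 1.75 to 2.29 fragments, lowest in cKO 2 and highest in cKO 1. The window of Arid3a held 4 to 9 peaks and its promoter at least 1 peak in each sample of both genotypes, so peak calls did not check the deletion. Of 10 epithelial marker genes (Epcam, Vil1, Cdh1 and others), 5 had a promoter peak in all 6 samples and 1 had none. Of 6 crypt stem cell genes 4 had one in all 6, beside 44.6% of all protein-coding genes. The epithelial count was thus near that of genes in general. No promoter of the 6 leukocyte markers was called in any sample, and promoters of 6 of 10 endothelial, 6 of 8 stomach, 5 of 6 lung and 4 of 6 mesenchymal markers were called in none. The share of all protein-coding genes with no promoter call in any sample is not given here, so these counts have no general reference. Promoters of Pdgfra and Col1a1 (mesenchyme), Sox17 (endothelium) and Atp4a (stomach) were called in all 6. In windows of the gene body and 10 kb flanks, peaks were called in all 6 samples for more of these genes. They numbered 7 of 10 endothelial, 6 of 8 stomach and 3 of 6 each of lung, leukocyte and mesenchymal markers. All 10 epithelial and all 6 stem cell markers had such peaks too. The share of all protein-coding genes with window peaks in all 6 samples is not given here. Bulk peaks do not separate fewer cells of a type from weaker accessibility per cell.

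All 8 gut-expressed genes had peaks in every sample, whereas Cldn18 had none within its 27807 bp gene body and flanks in any of the 6 samples. Of all protein-coding genes, 21.9% had no peak in the same kind of window in any sample. Cldn5 had a single peak, called in all 6 samples. Window peaks in every sample were also found for 7 of 10 endothelial, 6 of 8 stomach and 3 of 6 lung markers. Having them therefore did not by itself set the gut-expressed genes apart from these markers. Without the share of all protein-coding genes with window peaks in all 6 samples, no comparison with genes in general was made. The map of called peaks shows these loci side by side.

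**Figure D1:**
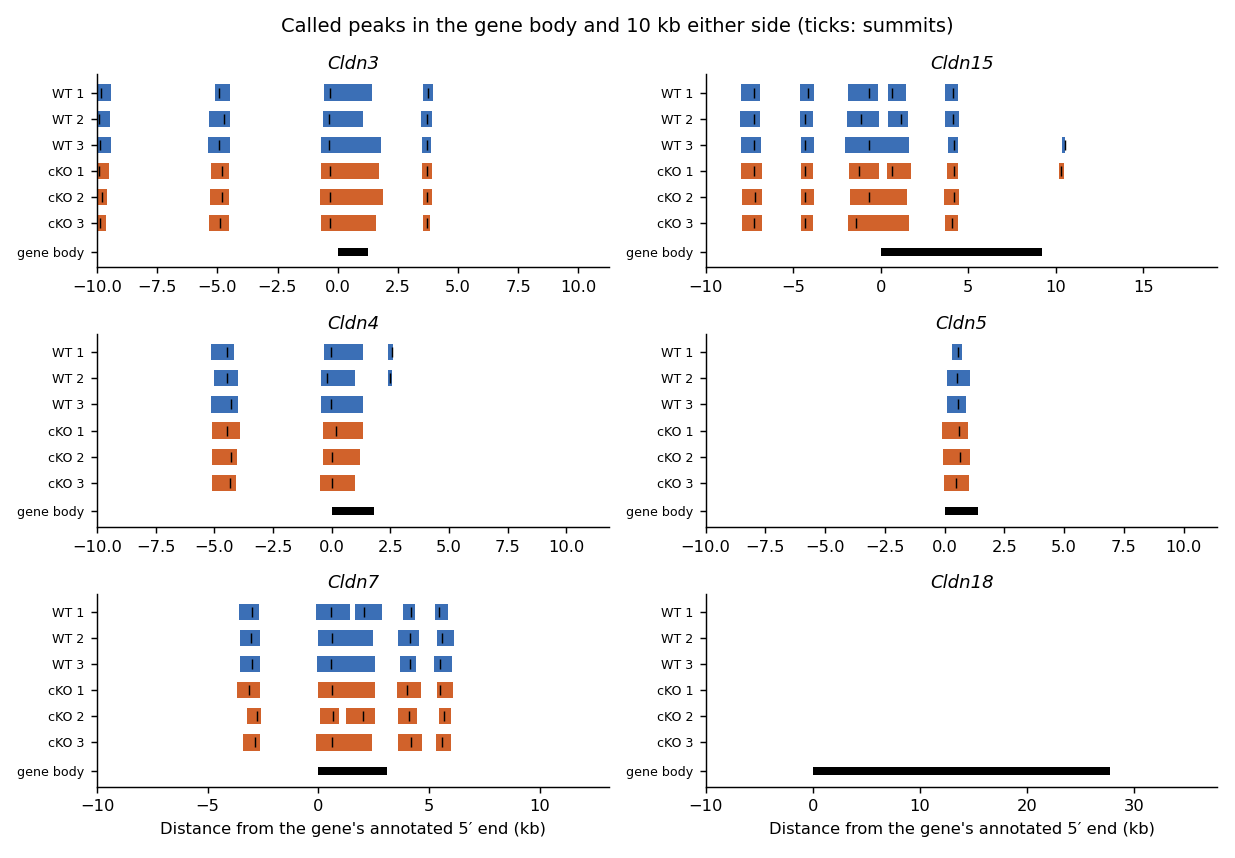
Called peaks in the windows of 6 claudin genes, with 1 row per sample (WT blue, cKO orange), bars for the extent of each peak, ticks for summits and a black bar for the gene body. The x axis is the distance from the gene's annotated 5′ end in kb, in the direction of transcription. The 4 gut claudins had several peaks each, Cldn5 had 1 peak with its summit inside its gene, and Cldn18 had 0.

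The number of consensus peaks followed the size of the locus only in part. Tjp1 (231617 bp) had 20 and Ocln (56212 bp) had 10, while the short genes Cldn2, Cldn3, Cldn4, Cldn7, Cldn15 and Cldn23 had 7, 4, 3, 4, 5 and 2. Of the 56 peaks, 36 were called in all 6 samples, which is 64.3% beside 45.9% of all consensus peaks. A peak was treated as a gene's own when the nearest protein-coding transcript start belonged to that gene. This held for 47 of the 56 peaks, 28 of them called in all 6 samples. The other 9 lay closest to the neighbouring genes Elp5 (beside Cldn7), Fis1 (beside Cldn15) and Gtf2h2 (beside Ocln). Distances are in bp from the nearest annotated transcript start, negative upstream of it, and coordinates are GRCm38.

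A promoter peak, with its summit from 1000 bp before to 100 bp after an annotated transcript start, was called in all 6 samples for 5 of the 10 genes, beside 44.6% of all protein-coding genes. These were Cldn3, Cldn7, Cldn23, Ocln and Tjp1. Cldn4 had one in every sample but cKO 1, where the same wide peak was called with its summit farther into the gene. Cldn15 had one in every sample but cKO 3, and Cldn2 only in WT 2, WT 3 and cKO 1. The Cldn5 peak lay at 559 bp in its coding exon and met the rule in 0 samples, and with summits allowed within 1000 bp either side of a start, Cldn4 and Cldn5 joined the list, which then held 7 genes.

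Among the pore-forming claudins, Cldn2 (chrX:139800828-139811386) had 3 peaks called in all 6 samples. The fold is the deposited ratio of the fragments stacked at the summit (the pileup) to the local background, and its percentile, like that of the pileup, is the rank within the sample's own list. The strongest own peak by fold was the one at −6477 bp in 3 samples and the one at 6982 bp, outside protein-coding genes (chrX:139812430-139814601), in the other 3. The latter had folds of 5.07, 7.01 and 5.42 in WT and 4.25, 7.22 and 4.35 in cKO, so the groups overlapped. A peak at 92 bp of an internal start was called in WT 2, WT 3 and cKO 1 with folds of 4.66, 4.80 and 3.47. The intron peak at 2356 bp had pileup percentiles of 25.2, 42.6 and 44.7 in WT against 59.8, 55.2 and 58.3 in cKO, with no overlap. Its folds of 2.94, 3.05 and 2.88 in WT and 2.76, 4.32 and 2.97 in cKO did overlap.

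Cldn15 (chr5:136966616-136975858), the other cation-pore claudin, had its widest peak at −914 bp (chr5:136964601-136968321), where the summit lay in an intron of Fis1. It had 85, 130 and 168 fragments at the summit in WT and 211, 106 and 142 in cKO. Its folds were 3.70, 3.73 and 3.30 in WT and 2.81, 3.52 and 2.55 in cKO. The intron peak at 2889 bp had folds of 4.10, 5.04 and 3.97 in WT and 3.36, 4.17 and 3.06 in cKO. These low folds stood over tall stacks, a contrast that recurred at Cldn3 and Cldn7.

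Cldn3 (chr5:134986214-134987472) is a barrier-tightening claudin with 4 peaks, each called in all 6 samples. The peak over its promoter (summit at −304 bp, chr5:134985471-134988105) had 138, 210 and 277 fragments at the summit in WT and 367, 171 and 275 in cKO. Its folds were 5.35, 4.74 and 5.07 in WT and 4.08, 5.23 and 4.40 in cKO, which overlapped. The peaks at −4845 bp and 3694 bp had 65 to 188 and 48 to 199 fragments at the summit, and the peak at −9873 bp 39 to 101.

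Cldn4 (chr5:134945119-134946934), a second barrier claudin on the same chromosome, had 2 peaks called in all 6 samples, with summits at 4 bp and at −4374 bp. The promoter peak at 4 bp had 61, 92 and 108 fragments in WT and 120, 70 and 99 in cKO. A further peak, at 2543 bp, was called in WT 1 and WT 2 with folds of 2.78 and 2.71 and in no cKO sample. Cldn7 (chr11:69964779-69967885), which is expressed along the basolateral side of gut epithelium, had an upstream peak at −3017 bp and a wide peak whose strongest summit lay at 11 bp from an internal transcript start. The latter had 93, 161 and 210 fragments at the summit in WT and 251, 122 and 169 in cKO, with folds of only 2.78 to 4.03.

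Cldn23 (chr8:35824712-35826559), a claudin of surface-facing gut epithelium, had the highest promoter fold of the 6 gut claudins in every sample. Its peak at −195 bp (chr8:35825425-35827168) had folds of 9.10, 11.6 and 10.6 in WT and 8.29, 10.7 and 8.14 in cKO. It had 122, 248 and 308 fragments at the summit in WT and 352, 188 and 261 in cKO, and the groups overlapped on both measures. A downstream peak at 5349 bp was called in every sample but cKO 2, with folds of 4.02, 4.59 and 4.59 in WT and 4.39 and 4.26 in cKO 1 and cKO 3.

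Ocln (chr13:100496507-100552718) had its promoter peak at −58 bp (chr13:100551169-100553573), with folds of 6.87, 8.63 and 9.43 in WT and 6.64, 9.80 and 7.28 in cKO. An intron peak at 19421 bp (chr13:100532516-100533685) had folds of 9.91, 10.4 and 11.4 in WT and 9.33, 12.7 and 9.77 in cKO. Both sets overlapped between genotypes. Another intron peak, at 9109 bp, had pileup percentiles of 68.2, 81.7 and 80.3 in WT and 83.6, 82.5 and 88.2 in cKO, which did not overlap, and overlapping folds.

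Tjp1 (chr7:65296165-65527781) had its strongest promoter peak at −109 bp of an internal start (chr7:65370211-65371651), with folds of 10.2, 13.6 and 12.8 in WT and 11.6, 12.4 and 10.01 in cKO. The peak at its outermost start, at 316 bp in the first intron, was much smaller, with folds of 4.14, 5.90 and 6.08 in WT and 6.85, 7.94 and 4.42 in cKO. Of its other peaks, 7 in introns were called in all 6 samples, among them one at 7604 bp with folds of 7.70 to 12.3. The intron peak at 57801 bp had pileup percentiles of 92.3, 92.5 and 92.4 in WT and 90.7, 90.0 and 89.3 in cKO, which did not overlap. Its fold percentiles did overlap.

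The Cldn5 peak (chr16:18776751-18777895) had its summit in the single exon of this gene, which runs from 18776847 to 18778262, and its merged extent began upstream of the start. It had 24, 44 and 44 fragments at the summit in WT and 69, 33 and 39 in cKO. Its folds were 4.99, 8.82 and 7.67 in WT and 11.02, 7.60 and 7.99 in cKO, lowest in WT 1 and highest in cKO 1, with the groups overlapping.

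Letters of summits and promoters are given for the peaks on which the comparisons turn. For the upstream peaks of Cldn3, Cldn4 and Cldn7 that ranked lower in cKO, and for the strongest Ocln and Cldn23 peaks, 121 bases centred on the median summit are shown on the plus strand of GRCm38. Capitals mark matches to any of 7 motifs, each searched without mismatch on both strands. The AP-1 letters were TGACTCA, bound by the Fos and Jun family. The HNF4 letters, of a nuclear receptor of enterocytes, were CAAAGTCCA or the variant CAAAGTTCA. The ARID3 letters, those of the family that includes the deleted factor, were ATCAAA and, as a second form, ATTAAA. CDX, an intestinal homeodomain factor, was searched as TTTATNG and the GATA zinc finger family as AGATAA. Of the remaining pair, the KLF zinc finger family was searched as CCNCNCCC and TCF, the nuclear partner of beta-catenin, as CTTTGAT.
Cldn3 peak at −9873 bp, chr5:134976281-134976401: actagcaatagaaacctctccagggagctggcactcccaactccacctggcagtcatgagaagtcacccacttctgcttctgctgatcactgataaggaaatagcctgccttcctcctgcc
Cldn4 peak at −4374 bp, chr5:134951248-134951368: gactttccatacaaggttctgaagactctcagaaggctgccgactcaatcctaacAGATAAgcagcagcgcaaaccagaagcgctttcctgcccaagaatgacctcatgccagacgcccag
Cldn7 peak at −3017 bp, chr11:69961702-69961822: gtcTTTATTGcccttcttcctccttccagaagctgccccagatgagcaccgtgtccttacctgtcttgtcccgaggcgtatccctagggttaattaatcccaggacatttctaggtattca
Ocln peak at 19421 bp, chr13:100532979-100533099: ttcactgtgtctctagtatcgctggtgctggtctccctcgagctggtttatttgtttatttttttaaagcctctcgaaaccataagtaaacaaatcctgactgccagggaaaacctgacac
Cldn23 peak at −195 bp, chr8:35826694-35826814: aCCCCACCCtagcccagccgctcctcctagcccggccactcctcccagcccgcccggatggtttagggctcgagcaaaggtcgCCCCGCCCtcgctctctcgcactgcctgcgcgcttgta

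The Cldn4 stretch held a GATA match, the Cldn7 stretch a CDX match and the Cldn23 stretch 2 KLF matches, while those of Cldn3 and Ocln held none of the 7. Over the longer windows of 100 bp either side of the summit, ARID3 letters occurred in 8 of the 28 own peaks called in all 6 samples (28.6%), beside 12.8% of the 32748 peaks called in all 6 samples. AP-1 letters occurred in 14.3% beside 8.17%, CDX in 17.9% beside 10.8% and GATA in 17.9% beside 11.2%. KLF letters occurred in 35.7% beside 40.1%, and HNF4 and TCF letters each in 1 of the 28. Every TCF match holds an ARID3 match on the other strand. The median GC content of these windows was 53.0%, beside 54.7% over all shared peaks. A match describes the letters and is not a bound site.

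CpG counts of the promoters overlapped between the gut-expressed genes and Cldn5 and Cldn18. RefSeq (GRCm38.p6) gave promoters for 9 of the 10 genes, all but Cldn23. In the 250 bases before the start, capitals mark CpG dinucleotides, shown for a gut claudin with a promoter peak in all 6 samples and for the endothelial and the stomach and lung claudin.
Cldn3 promoter, plus strand, chr5:134985964-134986213: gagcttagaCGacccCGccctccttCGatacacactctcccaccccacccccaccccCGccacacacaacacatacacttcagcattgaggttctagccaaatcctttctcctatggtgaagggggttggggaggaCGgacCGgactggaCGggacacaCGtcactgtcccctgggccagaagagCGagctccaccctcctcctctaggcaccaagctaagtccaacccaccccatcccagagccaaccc
Cldn5 promoter, plus strand, chr16:18776597-18776846: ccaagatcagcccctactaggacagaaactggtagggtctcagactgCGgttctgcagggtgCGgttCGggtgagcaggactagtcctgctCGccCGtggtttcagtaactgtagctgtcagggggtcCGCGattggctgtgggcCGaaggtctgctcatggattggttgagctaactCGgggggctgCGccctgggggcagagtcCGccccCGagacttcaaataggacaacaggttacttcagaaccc
Cldn18 promoter, minus strand, chr9:99717268-99717517: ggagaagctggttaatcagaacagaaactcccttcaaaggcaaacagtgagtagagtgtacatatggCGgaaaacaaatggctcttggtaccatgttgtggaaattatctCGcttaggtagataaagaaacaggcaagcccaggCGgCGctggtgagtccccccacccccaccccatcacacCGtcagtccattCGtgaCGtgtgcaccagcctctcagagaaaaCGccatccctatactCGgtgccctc

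The Cldn3 and Cldn18 stretches held 9 CpG each and that of Cldn5 held 12, beside a median of 6 over 32851 RefSeq promoters. At its other start Cldn18 held 7. Cldn2 held 4, Cldn4 and Cldn15 held 7, Cldn7 held 6 or 10 and Ocln 14 or 22 at their 2 starts, and Tjp1 held 22.

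The gut-expressed genes were next compared with Cldn5 and Cldn18 by rank. Each peak's fold was turned into its percentile within the sample's own list, and the strongest own peak of a gene was taken; a gene with no own peak was set to 0. Tjp1 stood highest, at a median of 89.9 over the 6 samples (88.8 to 91.5), followed by Ocln at 84.6 (77.0 to 90.7) and Cldn23 at 82.3 (69.5 to 84.1). Cldn5 came next, at 68.5 (45.7 to 86.6), with a median below that of Cldn23 and above those of the remaining claudins. Cldn2 stood at 50.8 (22.6 to 66.2), Cldn4 at 50.6 (37.8 to 69.9) and Cldn3 at 45.7 (25.3 to 51.2). Cldn7 at 27.8 (12.5 to 38.7) and Cldn15 at 20.7 (5.57 to 35.4) were lowest but for Cldn18 at 0. Each gene's range overlapped that of its neighbour in this order, except that of Cldn18. Tjp1 was above Cldn5 in every sample, and Cldn7 and Cldn15 were below it in every sample.

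**Figure D2:**
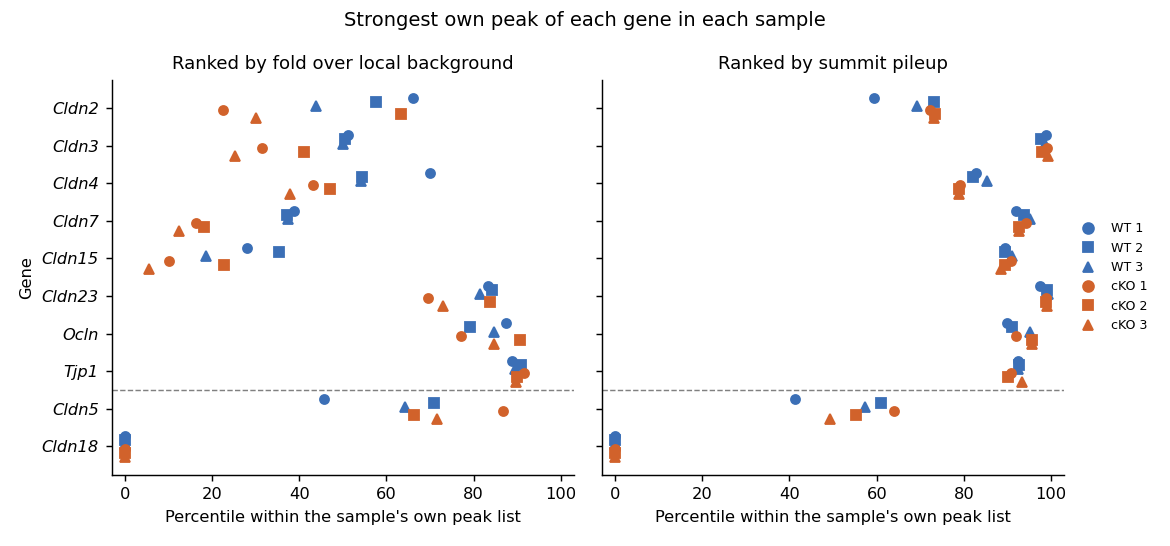
Percentile of the strongest own peak of each gene within each sample's list, ranked by fold on the left and by stacked fragments at the summit (pileup) on the right. Points are samples (WT blue, cKO orange, shape for the replicate number) and the dashed line separates gut-expressed genes from Cldn5 and Cldn18. By fold Cldn5 lay among the gut genes, and by pileup all 8 gut genes lay above it in every sample.

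The median over the 8 gut-expressed genes minus Cldn5 was negative in 5 of 6 samples. It was 22.3, −14.8 and −12.2 percentile points in WT 1 to 3 and −49.2, −11.1 and −37.6 in cKO 1 to 3, a mean of −17.1 ± 24.8 (SD, n = 6). Without WT 1, the only sample with a positive value, the mean was −25.0, and without cKO 1 it was −10.7. Ranked by −log10 q instead of fold, the difference was positive in all 6 samples, from 7.39 to 39.1 with a mean of 20.7. The same median minus Cldn18, which was at 0 throughout, was 34.0 to 68.0.

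The order was also reversed when peaks were ranked by the number of fragments at the summit. This number was recovered from the deposited fold and p columns, in which fold is (pileup + 1) / (local background + 1), and a whole pileup met both columns for 100% of peaks, to within 0.0002 in −log10 p up to a −log10 p of 10 and in proportion above it. This ranking was chosen after seeing the data. Cldn23 then stood at a median percentile of 98.9, Cldn3 at 98.7, Ocln at 93.5, Cldn7 at 93.2, Tjp1 at 92.4, Cldn15 at 89.5, Cldn4 at 80.6 and Cldn2 at 72.6. Cldn5 stood at 56.3, with a range of 41.3 to 64.0. All 8 gut-expressed genes were above Cldn5 in each of the 6 samples, by a mean of 37.3 ± 8.24 percentile points (SD, n = 6) for their median. A gene with several own peaks has more chances of a high strongest peak than Cldn5, which has 1.

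Peaks of Cldn3, Cldn7 and Cldn15 combined high pileup percentiles with lower fold percentiles, the Cldn23 promoter peak was high on both measures, and the Cldn2 peaks were lower by pileup. The 6 gut claudins, Cldn4 among them, had 14 own peaks called in all 6 samples. Over these 14 peaks the median pileup percentile was 81.4 to 88.2 by sample, beside 58.1 to 71.5 over all peaks called in all 6. Their median fold percentile was 42.9, 36.1 and 33.7 in WT and 18.4, 25.5 and 12.0 in cKO, beside 59.3 to 69.9 over all. The 13 own peaks of Ocln and Tjp1 had median fold percentiles of 56.4 to 65.9 with median pileup percentiles of 76.0 to 83.6.

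**Figure D3:**
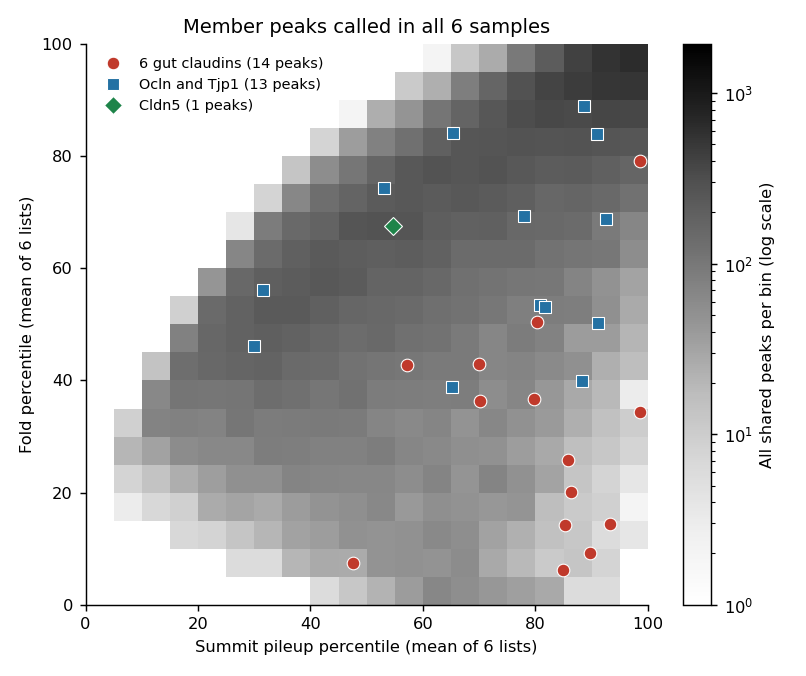
Fold percentile against pileup percentile, each the mean over the 6 lists, for own peaks called in all 6 samples of the 6 gut claudins (red circles), Ocln and Tjp1 (blue squares) and Cldn5 (green diamond). Grey shading counts all 32748 shared peaks per bin on a log scale. Most claudin peaks lay toward the lower right, with high pileup and low fold.

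The local background at the summit, the other term of the fold, was high at the gut claudin peaks. It was computed from the fold and the pileup, so it restates their contrast and is not a separate measurement. In multiples of each list's coverage, the median over the 14 gut claudin peaks was 6.55, 11.7 and 14.8 in WT and 18.5, 10.1 and 15.3 in cKO. Over all shared peaks it was 2.27, 3.01 and 3.49 in WT and 4.62, 2.72 and 3.84 in cKO. At Cldn5 it was 1.84 to 2.42, and over the peaks of Ocln and Tjp1 it was 3.19 to 7.45. The highest values were at the promoter peak of Cldn3, with 11.8, 23.9 and 26.8 in WT and 38.9, 18.2 and 28.3 in cKO. In each of the 6 lists the claudin median was above that of all shared peaks.

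**Figure D4:**
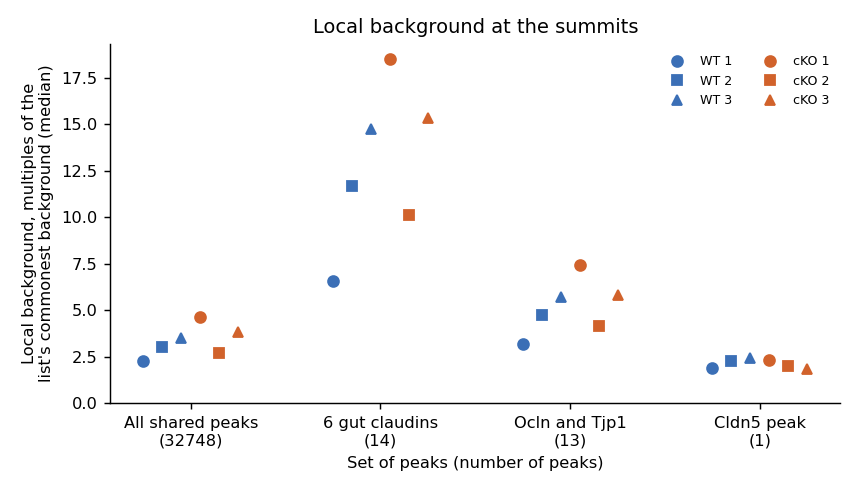
Median local background at the summits, in multiples of the list's commonest background, for 4 sets of peaks called in all 6 samples. Points are samples (WT blue, cKO orange). The 6 gut claudins stood at 6.55 to 18.5 and all shared peaks at 2.27 to 4.62, with WT 1 lowest and cKO 1 highest in both.

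Peaks with a pileup percentile of at least 75 and a fold percentile of at most 50 in all 6 lists, limits set after seeing the data, made up 1.11% of all shared peaks. They included 5 of the 27 own shared peaks of gut-expressed genes: those at −4845 bp of Cldn3, −3017 and 11 bp of Cldn7, and −914 and 2889 bp of Cldn15. With the pileup limit alone the count was 15 of 27, beside 29.0% of all shared peaks. Over all 36 member peaks called in all 6 samples, 8 met both limits, among them peaks nearest to the neighbouring genes Elp5 and Fis1.

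The WT and cKO samples were then compared, to ask whether loss of Arid3a in the epithelium was accompanied by a change at these loci. The members together had 45, 49 and 48 peaks in WT and 51, 41 and 43 in cKO. The means were 47.3 ± 2.08 and 45.0 ± 5.29 (SD, n = 3 each), a difference of −2.33 peaks that was within the spread between samples (exact two-sided permutation test, p = 0.6; the smallest p that 3 against 3 allows is 0.1). No member peak was called in 3 samples of one genotype and 0 of the other, beside 0.111% of all consensus peaks called in 3 WT and 0 cKO and 0.464% in 3 cKO and 0 WT. Of the 56, 8 (14.3%) were called in more WT than cKO samples, beside 15.7% of all, and 5 (8.93%) in more cKO than WT, beside 28.5%. There were 7 (12.5%) called in 1 sample only, beside 20.9%.

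The peaks called in unequal numbers and not yet described were Cldn2 at −8097 bp (WT 2, cKO 1 and cKO 3, folds of 3.36, 3.28 and 2.76), and Tjp1 at 29522 bp, called in all but cKO 2 with folds of 4.91, 7.52 and 10.5 in WT and 5.78 and 7.85 in cKO. Tjp1 at −68868 bp was called in WT 2, WT 3 and cKO 1 with folds of 3.69, 3.88 and 4.26. Peaks called once were Ocln at 16007 bp (WT 3, fold 2.48) and Tjp1 at −17147 bp (WT 2, 4.60), −23002 bp (WT 3, 3.65), −15276 bp (cKO 1, 5.48), −36677 bp (cKO 1, 3.40) and 13238 bp (cKO 2, 4.04), besides a peak in Ocln nearest to Gtf2h2 in cKO 2.

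Fold percentiles separated by genotype at 5 of the 36 member peaks called in all 6 samples, in each case with all 3 cKO values below all 3 WT values. That is 13.9%, beside 7.04% of all shared peaks in that direction. The opposite order was met by 0 of the 36, beside 4.66%. The 5 peaks belonged to Cldn2, Cldn3, Cldn4 and Cldn7, and none to Cldn15, Cldn23, Ocln, Tjp1 or Cldn5.

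The Cldn7 peak at −3017 bp (chr11:69961118-69962168) separated most tightly, with fold percentiles of 38.7, 37.3 and 37.5 in WT and 16.4, 12.6 and 12.5 in cKO. The Cldn3 peak at −9873 bp (chr5:134975824-134976810) had 48.2, 50.5 and 50.1 in WT and 31.5, 25.8 and 11.6 in cKO. Both lie upstream of the genes, outside protein-coding genes, and their letters are given above. The Cldn4 peak at −4374 bp (chr5:134950839-134952053) had 69.9, 54.3 and 54.1 in WT and 43.2, 43.0 and 37.8 in cKO. The Cldn2 peak at −6477 bp (chrX:139793971-139795002) had 66.2, 53.6 and 43.9 in WT and 20.3, 41.9 and 30.2 in cKO. At the Cldn7 peak at 11 bp, values of 18.8, 18.5 and 20.5 in WT stood against 7.21, 18.3 and 3.34 in cKO, with cKO 2 just under the WT samples.

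**Figure D5:**
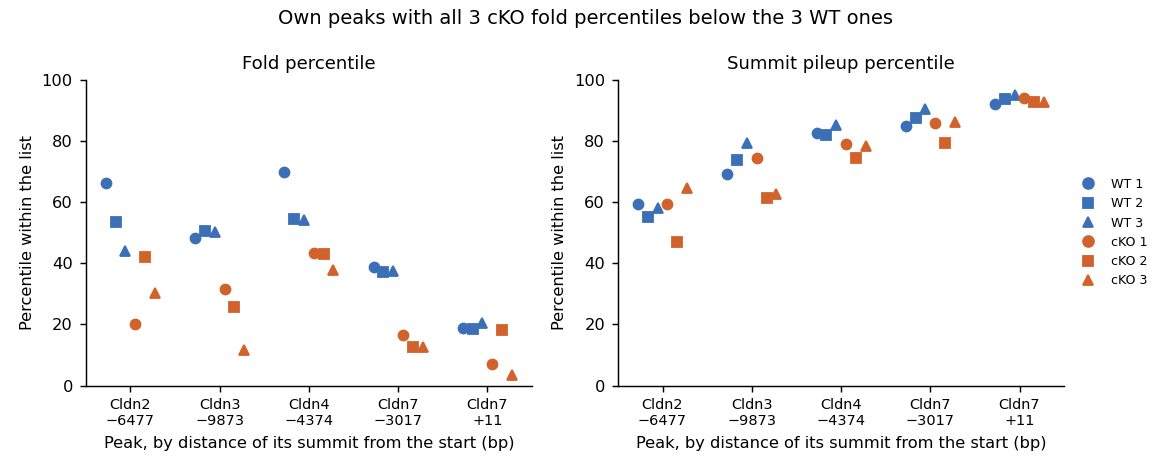
Fold percentile (left) and pileup percentile (right) in each sample at the 5 own peaks whose cKO fold percentiles all lay below the WT ones. Points are samples (WT blue, cKO orange, shape for the replicate number). By pileup the genotypes overlapped at 4 of the 5 peaks and stayed apart at Cldn4 −4374.

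None of these differences passed a test across all peaks. On quantile-normalized log2 fold, limma called 0 of the 36 member peaks and 0 of the 32748 shared peaks (0.0%) at an adjusted p of 0.05 (Benjamini-Hochberg). At an unadjusted p under 0.05 it listed 4 of the 36, all lower in cKO, beside 2.5% of all shared peaks in that direction; 2412 shared peaks passed in either direction. Both counts, taken in either direction, depended on single samples and moved together. Without cKO 2 they were 9 of 38 member peaks (8 lower in cKO) and 6459 of 33919 shared peaks. Without cKO 3 they were 1 of 36 and 1241 of 33108. Without cKO 1 they were 3 of 36 (2 lower in cKO) and 1316 of 32819, and without WT 2 they were 2 of 36 and 1883 of 33261. The Cldn3 peak at −9873 bp differed by −0.50 ± 0.18 (log2, SE; limma, adjusted p = 0.629) and the Cldn7 peak at −3017 bp by −0.44 ± 0.18 (limma, adjusted p = 0.632). The other 2 were the Cldn2 peak at −6477 bp and an Ocln intron peak at −24360 bp of Gtf2h2, with log2 differences of −0.44 and −0.41. For the Cldn4 peak at −4374 bp the log2 difference was −0.37 ± 0.19, and for Cldn5 it was 0.32 ± 0.17, neither past the test. The median log2 difference over the 36 was −0.15, beside −0.02 over all shared peaks, and 29 of the 36 were below 0, beside 53.7% of all.

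Ranked by pileup, most of the fold separations did not remain, and other peaks separated instead. All 3 cKO percentiles lay below the WT ones at 3 of the 36 peaks (8.33%), beside 1.4% of all shared peaks. These were the peaks at 4 and −4374 bp of Cldn4 and 57801 bp of Tjp1. All 3 lay above at 2 of the 36 (5.56%), at 2356 bp of Cldn2 and 9109 bp of Ocln, beside 6.45%. At the Cldn4 peak at 4 bp the values were 78.99, 81.45 and 81.53 in WT and 78.40, 78.94 and 78.90 in cKO. There WT 1 lay just above cKO 2. The Cldn4 peak at −4374 bp was the only one apart on both measures, with pileup percentiles of 82.7, 82.0 and 85.2 in WT and 79.1, 74.3 and 78.4 in cKO. At the Cldn7 peak at −3017 bp the pileup percentiles were 84.9, 87.5 and 90.4 in WT and 85.8, 79.3 and 86.3 in cKO, which overlapped. The local background there was 7.17, 12.2 and 15.5 times coverage in WT and 18.8, 10.7 and 16.4 in cKO, and its part in the lower folds was not tested.

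The other genes of the junction were described by promoter calls, beside 44.6% of all protein-coding genes with a promoter peak in all 6 samples. Of 29 further junction genes, among them Tjp3, Cgn, F11r and Marveld2, 19 had a promoter peak in all 6 samples and 1 in none, with 25 to 26 called per sample in both genotypes. Of 19 further claudins, 1 (Cldn12) had one in all 6 samples and 13 in none, with 2 to 5 called per sample. The only one of these 48 genes whose promoter calls differed by at least 2 samples between genotypes was Cldn8, a claudin best known from kidney and colon, whose promoter peak was called in 1 WT sample and in all 3 cKO samples. Of all protein-coding genes, 2.61% differed by at least 2 samples.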

How the data were processed

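Crypt ATAC-seq libraries of 3 WT and 3 Arid3a cKO samples were analysed from the authors' peak lists; samples were grouped by genotype label. Per the study's methods, reads were processed with the nf-core ATAC-seq pipeline on GRCm38 and MACS2 called narrow peaks per sample without pooling or a described input control. Each deposited list gives a score, a fold (the ratio of summit pileup to local background), a −log10 p and a −log10 q, all made by the authors; the score was not used. Reads per peak are not in the lists used here, so no count test was run. The 61 to 92 peaks per list outside chromosomes 1 to 19, X and Y were left out.

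Genes came from GENCODE M21. From fold and −log10 p, the whole pileup and the local background of each peak were computed. Percentiles were taken within each list. Peaks called in all 6 samples (32748 of 71286) were compared with limma 3.58.1 (trend, quantile-normalized log2 fold; R 4.3.3), with no pseudocount, and totals with an exact permutation test, under Python 3.11.15 with pandas 2.3.3, numpy 2.4.6 and pysam 0.24.0. Scripts were tested on simulated data. The study compared reads per peak with DESeq2, which the lists do not allow.

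The genes, lists, motifs and tests were chosen with earlier results of these data known. Named were all 10 members, with values per sample for strongest and promoter peaks and for own peaks whose calls or percentiles differed between genotypes; other junction genes and claudins were named by example or where promoter calls differed by at least 2 samples. Alternatives were lists cut to equal length, a −log10 q minimum of 5, other windows and promoter limits, median centring, log2 pileup, summit-based merging within 150 bp, no trend, a replicate block and leaving out each sample.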

Additional observations from a re-analysis of the deposited data

How the results depend on the processing

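No member peak passed the adjusted threshold of limma under any of the 13 alternatives, and the median log2 difference of member peaks stayed below 0, from −0.25 to −0.06. The difference in total member peaks turned to 1.33 (exact permutation p = 0.9) with −log10 q of at least 5, and was −5.33 to −0.33 when each sample was left out. Counting only the start of the gene record, 2 members (Cldn3 and Ocln) had a promoter peak in all samples, since summits at Tjp1 and Cldn7, and that of cKO 1 at Cldn23, met the rule at internal starts, and 5 to 6 did when a sample was left out. Gut members minus Cldn5 turned positive when peaks were ranked by −log10 q (20.7), by the strongest promoter peak (34.3), where Cldn5 is 0 by construction, and by recovered pileup (37.3, added after seeing the data), and stayed between −25.0 and −10.7 when a sample was left out. Gut members minus Cldn18 was 81.2, 34.3 and 92.0 under the same settings. Over all shared peaks, calls were 1 when centred on each list's median, 4 with log2 pileup, and 0 to 3 when a sample was left out (3 without WT replicate 3). Of 19 named member peaks, 8 changed sign with log2 pileup and 5 when 1 sample was left out, none called. The cause of these changes was not tested.

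Same-numbered samples correlated at −0.27, −0.005 and 0.13 in their deviations from the group means. Differently numbered samples correlated at −0.33 to 0.31. With 3 samples a group, these values cannot decide whether the replicate numbers pair the samples. With a replicate block, 4 of all shared peaks and 0 member peaks were called, and the difference in total member peaks was −2.33 (exact sign permutation, p = 0.75).

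A peak not called is not shown to be closed at this coverage. Wide peaks carry 1 summit, and its place decides a promoter call. With 3 samples a group, the precision of single peaks was low.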
